A study of Mus musculus with 20 samples.

Results

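The response of cortical neurons to oxygen-glucose deprivation (OGD, low oxygen without added glucose, a culture model of ischaemia) was compared between neurons with and without the circular RNA ciRS-7. The difference was computed for each miRNA as the knockout response (OGD minus normoxia) minus the wild-type response, on the log2 scale, and it used 20 of the 20 libraries of the study. The microRNA content of each culture was read by small RNA sequencing, and 1481 entries named as mature mouse miRNAs were tested. Wild-type and ciRS-7 knockout neurons were isolated from the cortex of embryos (labelled E15) and grown for 7 days. The strain label of every sample, wild type included, is C57BL/6N-Cdr1asem1Nikr, the name of the knockout line. Normoxic cultures were kept for 12 h at 37 °C in 5% CO2 with 25 mM glucose and 0.2 mM pyruvate. OGD cultures were kept for the same 12 h at 37 °C in 1% O2 and 5% CO2 without added glucose or pyruvate. Each of the 4 groups had 5 libraries, described as biological replicates. The knockout came from a single allele and OGD from a single duration, and ciRS-7 itself is not among the measured entries, so the genotype labels were not checked by these data. The cultures were sequenced in bulk, so fewer cells of a type and less of an RNA per cell cannot be told apart.

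A miRNA is a short RNA that loads into an Argonaute protein and pairs with messenger RNAs through its seed, the bases from position 2 to 8. Mature miRNAs can be cut from either arm of a hairpin, and the names carry 5p or 3p for the arm. ciRS-7 (also called Cdr1as) is a circular RNA of neurons with many binding sites for miR-7 and a site of near-complete pairing with miR-671-5p, through which it can be cleaved. miR-210 is a miRNA that the hypoxia-inducible factor switches on in low oxygen.

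The mature sequences that the comparison turns on are shown 5′ to 3′ in lower case with the seed in capitals, from RefSeq (GRCm38.p6). The first group holds the binding partners of ciRS-7 and the hypoxia miRNA.
miR-7a-5p: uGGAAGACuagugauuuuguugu
miR-7b-5p: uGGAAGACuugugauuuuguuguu
miR-671-5p: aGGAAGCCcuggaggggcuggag
miR-671-3p: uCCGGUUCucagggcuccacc
miR-210-3p: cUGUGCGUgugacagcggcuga
miR-7a-5p and miR-7b-5p share a seed and differ at 1 of the positions they have in common, A10U, counted from the 5′ end of miR-7a-5p. miR-7a-5p is encoded at chr13:58392841-58392863 (minus strand, in an intron of Hnrnpk) and at chr7:78888295-78888317 (plus strand, in no annotated host gene). miR-7b-5p lies at chr17:56243017-56243040 (plus strand). Both arms of miR-671 lie in an exon of Chpf2 on its own strand, miR-671-5p at chr5:24592132-24592154 and miR-671-3p at chr5:24592171-24592191. miR-210-3p lies at chr7:141221407-141221428 (minus strand).

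The second group holds entries with a small p for the difference, in either direction. A pair that shares a seed with the first of them stands beside them.
miR-20b-5p: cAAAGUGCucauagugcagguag
miR-17-5p: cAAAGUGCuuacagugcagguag
miR-20a-5p: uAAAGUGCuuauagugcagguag
miR-299a-5p: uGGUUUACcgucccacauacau
miR-540-5p: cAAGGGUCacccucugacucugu
miR-20b-5p lies at chrX:52742159-52742181 (minus strand). miR-17-5p (chr14:115043684-115043706) and miR-20a-5p (chr14:115044183-115044205) lie together in Mir17hg. miR-299a-5p (chr12:109710644-109710665) and miR-540-5p (chr12:109586085-109586107) are in the imprinted Dlk1-Dio3 region.

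The third group holds entries that rose most in both genotypes.
miR-3535: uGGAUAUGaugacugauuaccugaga
miR-6238: uUAUUAGUcaguggaggaaaug
miR-6240: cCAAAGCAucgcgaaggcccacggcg
miR-12188-5p: uAGAAGAGcuuucgcuggcccaga
miR-3535 (chr1:86352062-86352087, minus strand) lies inside the annotated small nucleolar RNA gene Gm24148, within Ncl. miR-12188-5p (chr17:25160503-25160526) overlaps an exon of Clcn7 on the same strand. miR-6238 (chr7:53891796-53891817) and miR-6240 (chr5:114851973-114851998) lie in no annotated host gene.

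Depth differed between the conditions in both genotypes. In wild type, the median total fell from 8208163 reads in normoxia to 1992517 after OGD. The knockout medians were 8854518 and 2552651 reads. The sum of the 6 neuronal marker miRNAs was 292975 to 389896 CPM (reads scaled to a common library total) in every library. Most of it came from miR-9-5p and miR-128-3p, so it says little of the others. After OGD, 2 of the 6 were called higher and 1 lower in wild type, beside 23% and 5.06% of all entries. In knockout 3 were called higher and 1 lower, beside 16.7% and 5.13%. Summed microglial and leukocyte markers were 4.9 to 6.82 CPM in normoxic and 6.87 to 15.2 CPM in OGD knockout libraries. These ranges nearly touched but did not overlap. In wild type the sums were 3.4 to 7.25 CPM and 5.02 to 13.2 CPM, which overlapped. Of these 4 markers, 0 were called after OGD in either genotype, and 0 had a mean log2 level of at least 3. The share of all entries without overlap in the knockout was not counted, so this separation has no background to be read against. Oligodendrocyte markers summed to 5.86 to 15.3 CPM and erythroid markers to 0.557 to 5.1 CPM, with overlap between the conditions of each genotype. The larger marker sums, for endothelium (269 to 393 CPM), smooth muscle and fibroblast (30.4 to 64.7 CPM), choroid plexus (54.0 to 162 CPM) and muscle (33.6 to 58.7 CPM), also overlapped. No marker's difference between responses was called, and their part in the results was not tested.

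One library stood apart, and it bears on every value of the wild-type response. On the first principal component (83% of the variance), replicate 5 of normoxic wild-type neurons sat at -0.88, while the other normoxic wild-type libraries sat between -14.46 and -13.09 and the OGD libraries between 7.00 and 15.05. Replicate 5 of normoxic wild-type neurons held 2492065 reads, against 5164319 to 9117862 in the rest of its group. OGD libraries held 1160582 to 4374002 reads. Replicates 2, 4 and 5 of normoxic knockout neurons, at -6.61, -6.46 and -9.69, also lay between their group and the OGD libraries. These held 8523761, 10116439 and 8854518 reads. The part of depth in these positions was not tested. Differences between responses that moved by over 1.5 times, or changed sign, without replicate 5 of normoxic wild-type neurons are also given without it.

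Which miRNAs respond alike in the 2 genotypes was asked first. The responses had the same direction for every miRNA called in both by library totals. Among the 423 entries with a mean level of at least 3 on the log2(CPM + 0.5) scale, 186 (44.0%) were called in both genotypes, 130 of them higher and 56 lower after OGD, and 0 had opposite directions. A further 38 were called in wild type only, 23 in knockout only, and 176 in neither. Calls had an adjusted p under 0.05 in limma over all 1481 entries, where wild type gave 341 higher (23%) and 75 lower (5.06%) and knockout gave 248 higher (16.7%) and 76 lower (5.13%). Over all 1481 entries, 262 were called in both, 201 higher and 61 lower, again with 0 in opposite directions. In 4 of the alternatives, 1 to 4 rare entries were called in opposite directions, none of them with a mean level of 3.

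Across the 423 entries, the responses had a Pearson r of 0.98 and a Spearman rho of 0.96, as a description across miRNAs, which are not independent replicates. The responses share no library. The major-axis slope of the knockout on the wild-type response was 0.86, and it was 0.76 without replicate 5 of normoxic wild-type neurons. For the 388 entries with a mean response of at most 2 (log2), the slope was 0.96, and 0.95 without that library. For the other 35, which rose most, it was 0.87, and 0.73 without that library.

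**Figure D1:**
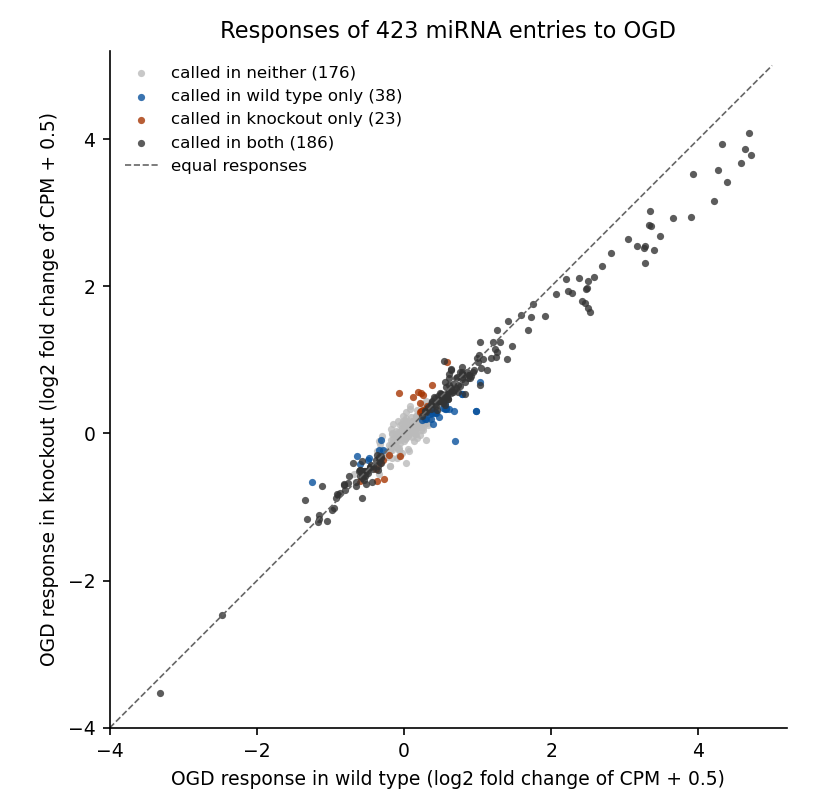
OGD response (log2 fold change of CPM + 0.5) in wild-type neurons (horizontal axis) against knockout neurons (vertical axis) for 423 miRNA entries, coloured by the genotype in which they were called. Most points lie along the dashed line of equal responses, and the 35 entries with a mean rise over 2 lie below it.

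How many were called higher and lower depended on the scaling. The median response of the 423 entries was 0.22 in wild type and 0.20 in knockout, and centring each library on its median moved these medians to -0.34 and -0.29. The share of calls that were higher after OGD was 82.0% in wild type and 76.5% in knockout by library totals. With centred libraries these shares were 27.6% and 28.5%, with quantile normalization 41.2% and 43.7%, and with median-of-ratios size factors 62.7% and 53.5%. The directions of single responses below are relative to library totals. The median difference between the responses was -0.03 by totals and 0.04 with centred libraries, so the genotype difference moved far less than the responses did.

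The largest rises and falls were shared. miR-3535 was at 89.5, 89.5, 102, 109 and 602 CPM in normoxic wild-type libraries (replicates 1, 2, 3, 4 and 5) and at 2821, 3178, 5098, 3418 and 3957 CPM after OGD. In knockout neurons it was at 102, 293, 74.3, 271 and 169 CPM in normoxia and at 2342, 1867, 3092, 2329 and 4658 CPM after OGD. The OGD libraries lay above all normoxic libraries in both genotypes, and replicate 5 stood far above the rest of the normoxic wild-type group. The rise of miR-3535 was 4.69 (SE 0.39) in wild type and 4.09 (SE 0.39) in knockout on the log2 scale, with adjusted p of 7.8e-10 and 1e-08 in limma. miR-6238 rose by 4.63 and 3.86, miR-12188-5p by 4.71 and 3.78, and miR-6240 by 4.58 and 3.68 in wild type and knockout, respectively. Without replicate 5, the wild-type rises were 5.21 for miR-3535, 5.34 for miR-6238, 5.25 for miR-12188-5p and 5.23 for miR-6240.

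Among the falls, miR-410-5p, the minor arm of a miRNA of the imprinted Mirg cluster, dropped from 19.2 to 36.5 CPM in normoxic wild-type libraries to 1.00 to 4.17 CPM after OGD. In knockout neurons it dropped from 25.8 to 38.0 CPM to 0.557 to 3.44 CPM. The responses were -3.32 and -3.52 (SE 0.31 each). let-7c-1-3p, a minor arm of the let-7 family, changed by -2.47 in both genotypes. miR-409-3p, a Mirg miRNA at 1153 to 1593 CPM in normoxia, changed by -1.17 in wild type and -1.21 in knockout. The difference between responses was -0.20 for miR-410-5p, 0.00 for let-7c-1-3p and -0.03 for miR-409-3p, each smaller than its SE; without replicate 5 of normoxic wild-type neurons these were -0.15, 0.09 and -0.08.

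The question of whether the OGD response depended on ciRS-7 was addressed by the difference between the responses. No miRNA had a response that differed between the genotypes after adjustment: limma with Benjamini-Hochberg adjustment called 0 of 1481 entries (0%). At an unadjusted p under 0.05 there were 74 (5%), of which 23 had a higher and 51 a lower response in the knockout. Only 4 of the 74 were among the 423 entries with a mean level of at least 3. Without replicate 5 of normoxic wild-type neurons, 0 were called and 115 had an unadjusted p under 0.05, of which 24 had a higher and 91 a lower response in the knockout. Of these 115, 43 were among the 423, and 30 of the 43 belonged to the 35 entries that rose most. With all libraries, the other 70 had a median highest count of 6 reads, and 22 of them never exceeded 3 reads in any library. The smallest p (adjusted p = 0.145 in limma) belonged to miR-6364, an entry with at most 3 reads in a library.

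The size of difference that could be seen depended on the level. For the 423 entries, the median half-width of the 95% interval was 0.41, a 1.33-fold difference. The whole interval lay within a 2-fold difference (log2 of 1) in either direction for 378 entries (89.4%), and within 1.5-fold for 262 (61.9%). For the 108 entries with a mean level of 9 or more, it lay within 2-fold for 107 and within 1.5-fold for 98. Under a mean level of 3, it lay within 2-fold for 226 of 1058. Of the 22 entries of at least 3 whose half-width exceeded 1, all 22 belonged to the 35 that rose most.

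**Figure D2:**
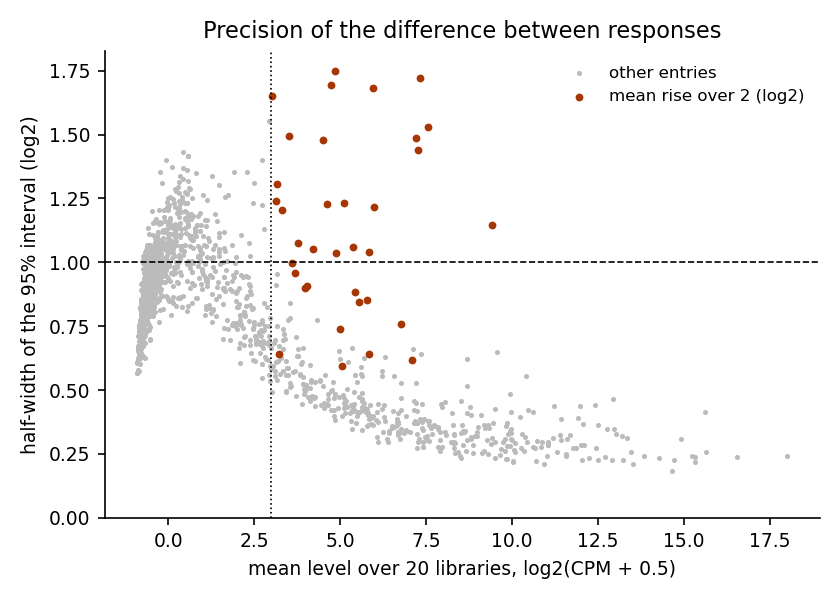
Half-width of the 95% interval of the difference between responses (log2) against the mean level, for 1481 entries; the dashed line marks a 2-fold difference and the dotted line a mean level of 3. The entries that rose most after OGD have wider intervals (median 1.08) than the other entries of at least 3 (median 0.39).

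A call in a single genotype is no test of a difference between them, and none of these entries had a called difference. Of the 38 entries called in wild type only, 37 moved in the same direction in the knockout, and 3 had an unadjusted p under 0.05 for the difference. Of the 23 called in knockout only, 22 moved in the same direction in wild type, and 1 had an unadjusted p under 0.05. The median difference was -0.12 in the first set and 0.06 in the second. Over all levels, 36 of the 154 entries called in wild type only and 10 of the 62 called in knockout only had an unadjusted p under 0.05, beside 5% of all 1481 entries, with median differences of -0.51 and 0.36. These sets were chosen on the responses that the difference is made of, so the counts are a description.

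miR-299a-5p, a miRNA of the imprinted Mirg cluster, had the smallest p of the entries at a level of at least 3. It was at 6.78, 7.25, 5.82, 5.67 and 6.42 CPM in normoxic wild-type libraries and at 8.85, 13.3, 10.2, 10.4 and 10.5 CPM after OGD. Its knockout levels were 7.32, 6.35, 7.16, 7.85 and 7.45 CPM in normoxia and 7.80, 6.87, 7.18, 6.25 and 5.57 CPM after OGD. The wild-type groups did not overlap and the knockout groups did. The response was 0.69 (SE 0.17) in wild type and -0.10 (SE 0.17) in knockout, a difference of -0.79 (95% interval -1.28 to -0.30, adjusted p = 0.577 in limma). These levels rest on few reads, 12 to 36 in the wild-type and 10 to 24 in the knockout OGD libraries. With centred libraries the wild-type response was 0.13 and the knockout response -0.59, the second of which was called in place of the first (adjusted p = 0.0191), while the difference was -0.72. Across all alternatives the difference ran from -0.85 to -0.27. With the group extremes left as deposited it was called (adjusted p = 0.000308), and in the others it was not.

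miR-669a-3p and miR-669o-3p, of the Sfmbt2 cluster, had the same reads in all 20 libraries and are therefore a single measurement. They were at 4.16 to 7.50 CPM in normoxic and 8.44 to 17.1 CPM in OGD wild-type libraries, and at 4.91 to 8.13 CPM and 5.202 to 11.7 CPM in the knockout. The wild-type groups did not overlap, whereas 3 of 5 OGD libraries exceeded all normoxic libraries in the knockout. The difference was -0.68 (SE 0.32, adjusted p = 0.97 in limma).

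miR-540-5p rose in both genotypes without overlap, from 2.62 to 5.10 CPM to 15.7 to 28.6 CPM in wild type and from 2.91 to 5.45 CPM to 13.2 to 20.6 CPM in the knockout. Its rise was 2.42 in wild type and 1.80 in knockout, a difference of -0.62 (adjusted p = 0.99 in limma). miR-7667-5p rose by 2.53 and 1.65. Its difference of -0.88 was -1.32 without replicate 5 of normoxic wild-type neurons, where it was at 18.5 CPM against 2.50 to 5.86 CPM in the other 4 libraries (adjusted p = 0.0981 without that library, in limma).

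In the other direction, miR-20b-5p had the smallest p of the entries at a level of at least 3. It is a member of the miR-17 seed family of growth-promoting miRNAs. It was at 15.7, 12.2, 15.2, 12.3 and 9.07 CPM in normoxic wild-type libraries and at 15.2, 13.3, 14.4, 9.74 and 9.04 CPM after OGD. Its knockout levels were 9.90, 11.2, 15.7, 13.9 and 13.5 CPM in normoxia and 20.2, 19.3, 23.9, 13.9 and 17.8 CPM after OGD. The wild-type groups overlapped throughout, and 4 of 5 knockout OGD libraries exceeded all normoxic ones. The response was -0.07 in wild type and 0.55 in knockout (SE 0.19 each), a difference of 0.61 (95% interval 0.05 to 1.17, adjusted p = 0.97 in limma). The knockout response was called by library totals (adjusted p = 0.0418) and in none of the other 3 scalings, with 0.06 in centred libraries. The wild-type response was called lower instead with centred libraries (-0.63, adjusted p = 0.0187 in limma) and quantile normalization (-0.65, adjusted p = 0.0232).

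The other miRNAs with the same AAAGUGC seed gave smaller estimates. The difference was 0.26 (SE 0.21) for miR-17-5p, 0.32 (SE 0.21) for miR-20a-5p, 0.21 (SE 0.20) for miR-93-5p, -0.13 (SE 0.21) for miR-106b-5p and -0.04 (SE 0.29) for miR-106a-5p. All had an adjusted p of 0.99 in limma, and 3 of the 5 estimates were positive and 2 negative. Without replicate 5 of normoxic wild-type neurons the estimates were 0.43 for miR-17-5p, 0.49 for miR-20a-5p, 0.37 for miR-93-5p, 0.03 for miR-106b-5p and 0.04 for miR-106a-5p, and that of miR-20b-5p was 0.73.

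miR-362-5p, from an intron of Clcn5, was at 20.02 to 43.8 CPM in normoxic and 40.8 to 63.2 CPM in OGD wild-type libraries, which overlapped. In the knockout it was at 27.4 to 43.8 CPM and 58.7 to 83.0 CPM, which did not. The difference was 0.43 (SE 0.26) and 0.61 without replicate 5 of normoxic wild-type neurons. The wild-type response of 0.55 was called by library totals and was -0.01 with centred libraries.

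miR-30b-3p fell from 49.5 to 55.8 CPM to 21.2 to 34.2 CPM in wild type and from 51.3 to 58.0 CPM to 24.0 to 48.3 CPM in the knockout, a difference of 0.40 (SE 0.21). miR-361-3p fell from 550 to 689 CPM to 349 to 440 CPM in wild type and from 530 to 744 CPM to 392 to 576 CPM in the knockout, a difference of 0.30 (SE 0.16). miR-30c-5p, of the abundant miR-30 family, had a difference of 0.23 (SE 0.13). Each had an adjusted p of 0.99 in limma, and the estimated response was negative in both genotypes for all 3.

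Called in the knockout only were also miR-33-3p, from an intron of the lipid regulator Srebf2, and miR-182-5p. miR-33-3p had responses of 0.58 and 0.97 in wild type and knockout, and a difference of 0.39 (SE 0.32). miR-182-5p had responses of 0.12 and 0.49, and a difference of 0.37 (SE 0.22). The knockout call of miR-182-5p was lost in all 3 other scalings, and that of miR-33-3p with centred libraries (adjusted p = 0.14 in limma) and quantile normalization (adjusted p = 0.268).

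**Figure D3:**
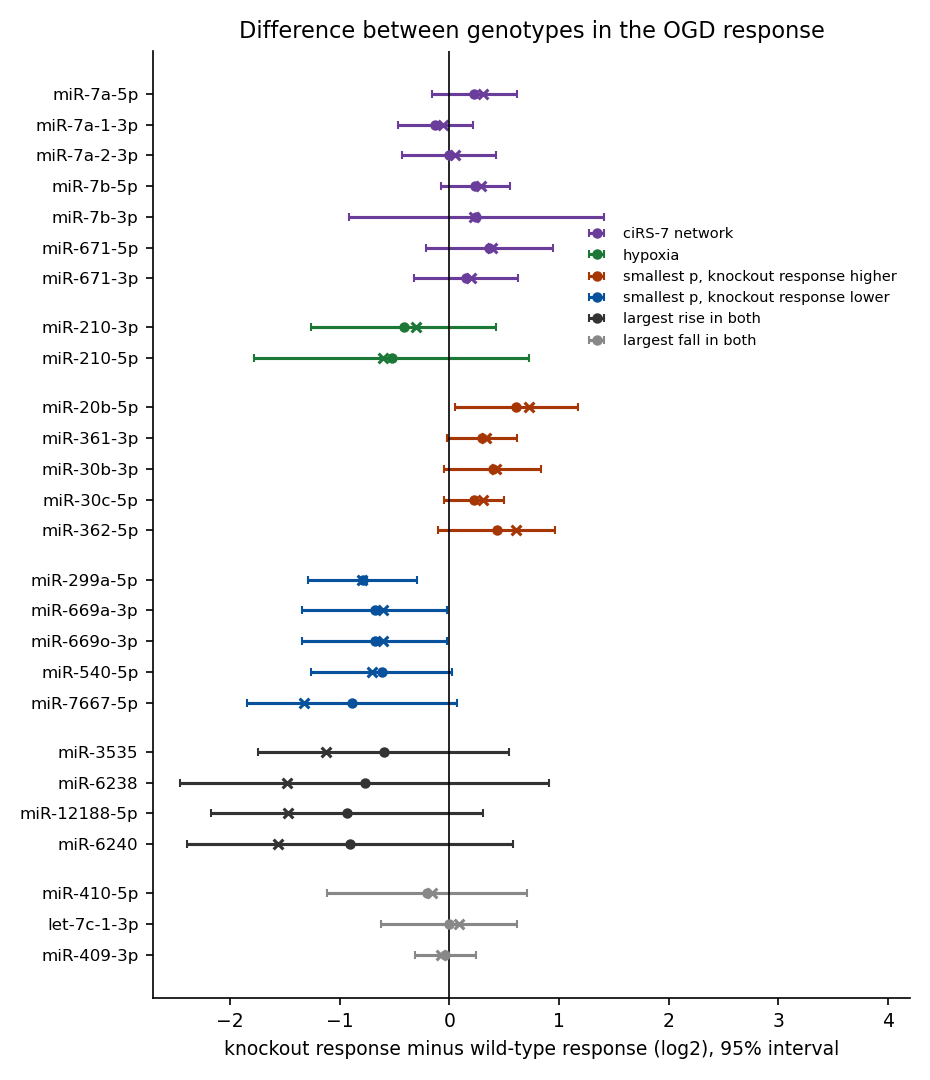
Knockout response minus wild-type response (log2) with its 95% interval for the miRNAs of the ciRS-7 network, miR-210, the entries with the smallest p and those with the largest shared responses; crosses give the estimate without replicate 5 of normoxic wild-type neurons. With all libraries, the intervals of miR-299a-5p, miR-669a-3p, miR-669o-3p and miR-20b-5p exclude 0, none after adjustment. The crosses lie farthest from the points among entries that rose most.

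Of the binding partners of ciRS-7, miR-7a-5p rose after OGD in both genotypes. It was at 3419, 4267, 3789, 4387 and 2980 CPM in normoxic wild-type libraries and at 5397, 5964, 6096, 6929 and 4905 CPM after OGD. In the knockout it was at 2066, 2704, 1773, 3282 and 2564 CPM in normoxia and at 4700, 4344, 3661, 4548 and 5002 CPM after OGD. OGD libraries lay above normoxic ones without overlap in each genotype. The rise was 0.64 (SE 0.13, adjusted p = 0.000523) in wild type and 0.87 (SE 0.13, adjusted p = 1.51e-05) in knockout in limma. With centred libraries the wild-type rise was 0.08 and no longer called, and the knockout rise was 0.38. The difference between genotypes was 0.23 (95% interval -0.16 to 0.62, adjusted p = 0.99), and 0.12 to 0.34 across all alternatives.

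miR-7b-5p, the more abundant miR-7, was at 10203 to 13151 CPM in normoxic and 8950 to 11628 CPM in OGD wild-type libraries. Its knockout levels were 8211 to 11442 CPM and 8591 to 12149 CPM, and the groups overlapped in each genotype. Its responses were -0.18 and 0.06 (SE 0.11 each), with a difference of 0.24 (95% interval -0.08 to 0.55), close to that of miR-7a-5p. With centred libraries both responses were called lower (-0.74, adjusted p = 2.37e-05, and -0.43, adjusted p = 0.00881, in limma), and with median-of-ratios factors the wild-type response was (-0.44, adjusted p = 0.00317), while the difference stayed between 0.12 and 0.31 over all alternatives. The log2 ratio of miR-7a-5p to miR-7b-5p, which scaling by a factor per library leaves as it is, went from -1.67 ± 0.18 to -0.85 ± 0.15 in wild type and from -1.96 ± 0.28 to -1.15 ± 0.23 in knockout (SD, n = 5). It rose by a like amount in both genotypes, and the knockout ratio lay lower on average in both conditions.

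The minor arms of miR-7 had differences of -0.13 (SE 0.17) for miR-7a-1-3p, 0.00 (SE 0.21) for miR-7a-2-3p and 0.25 (SE 0.57) for miR-7b-3p. Without replicate 5 of normoxic wild-type neurons, the first was -0.06 and the second 0.05. miR-7b-3p, at 0 to 3.55 CPM, fell in both genotypes, by 1.44 in wild type and 1.19 in knockout.

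The arms of miR-671 came closer in level after OGD in both genotypes. miR-671-3p was at 31.5, 30.1, 21.5, 25.5 and 22.7 CPM in normoxic wild-type libraries and at 10.8, 8.84, 9.34, 9.04 and 13.1 CPM after OGD. In the knockout it was at 30.2, 26.9, 31.0, 27.6 and 26.7 CPM in normoxia and at 9.43, 12.9, 11.2, 16.0 and 13.4 CPM after OGD. It fell without overlap in both, by 1.32 and 1.17 (SE 0.16 each), and the difference was 0.15 (95% interval -0.32 to 0.62). Across all alternatives this difference ran from -0.16 to 0.33, with a change of sign in 1.

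miR-671-5p, the arm that pairs with ciRS-7, was at 6.25 to 8.88 CPM in normoxic and 5.52 to 9.74 CPM in OGD wild-type libraries. Knockout levels were 5.41 to 8.60 CPM and 8.45 to 15.6 CPM, where 4 of 5 OGD libraries lay above all normoxic ones. Its response was 0.19 in wild type and 0.56 in knockout (SE 0.20 each), of which the second was called by library totals (adjusted p = 0.0416 in limma) and in none of the other 3 scalings. The difference was 0.37 (95% interval -0.21 to 0.94, adjusted p = 0.99). Across all alternatives it ran from -0.13 to 0.45, with a change of sign in 1. The log2 ratio of miR-671-5p to miR-671-3p went from -1.85 ± 0.34 to -0.33 ± 0.51 in wild type and from -1.92 ± 0.32 to -0.19 ± 0.16 in knockout (SD, n = 5).

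The hypoxia miRNA miR-210 rose in both genotypes. miR-210-3p was at 19.1, 16.6, 28.7, 14.4 and 12.8 CPM in normoxic wild-type libraries and at 128.03, 127, 127, 111 and 47.2 CPM after OGD. Knockout libraries held 22.4, 15.9, 47.7, 19.6 and 24.1 CPM in normoxia and 119, 72.2, 184, 70.1 and 105.9 CPM after OGD. All OGD libraries lay above all normoxic libraries of their genotype. The rise was 2.49 in wild type and 2.08 in knockout (SE 0.29 each), and the difference was -0.42 (95% interval -1.26 to 0.43, adjusted p = 0.99 in limma). It was -0.69 without replicate 5 of the OGD wild-type libraries (47.2 CPM) and -0.17 without replicate 3 of the normoxic knockout libraries (47.7 CPM). The minor arm miR-210-5p, at up to 6.38 CPM, rose by 2.20 and 1.68, with a difference of -0.52 (SE 0.61) that ran from -1.04 to -0.09 over the alternatives. Its knockout rise was 1.10 and not called with quantile normalization (adjusted p = 0.0984 in limma).

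**Figure D4:**
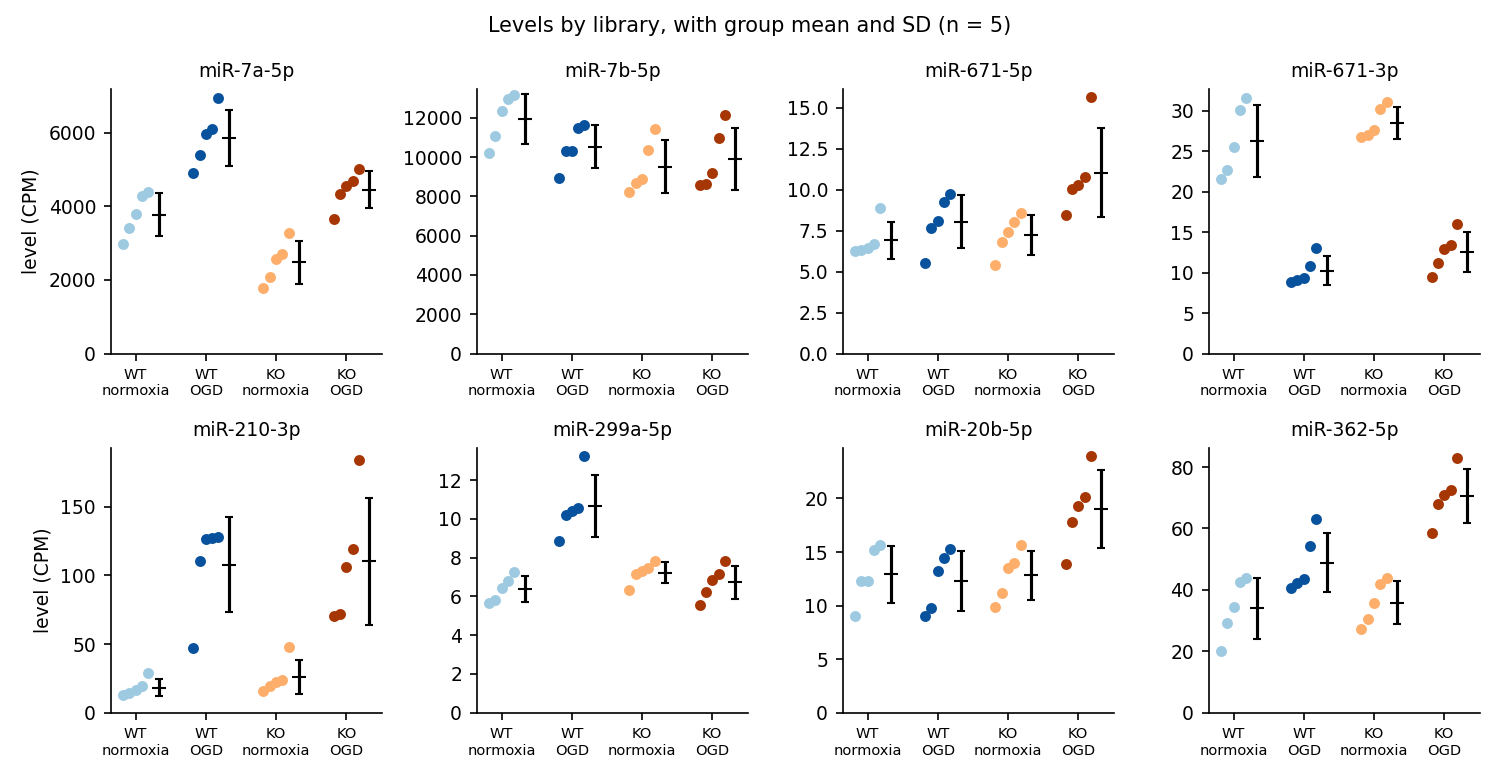
Level (CPM, linear axes from 0) of 8 miRNAs in each of the 20 libraries, by genotype and condition, with the mean and SD of each group (n = 5). miR-7a-5p and miR-210-3p rose and miR-671-3p fell without overlap in both genotypes, whereas the OGD libraries of miR-299a-5p stood above normoxia in wild type only, by the levels of these libraries.

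The entries that rose most were the only size class in which all estimates had the same sign. Grouped by the mean of both responses, 35 of the 423 entries rose by more than 2 (log2). Their median rise was 3.27 in wild type and 2.54 in knockout, and the estimate of the difference was negative for 35 of 35, with a median of -0.62 and a range from -1.05 (miR-6937-5p) to -0.09 (miR-8112). For the 20 entries with a mean rise of 1 to 2 the median difference was -0.08 and 12 were negative. For the 62 with a mean rise of 0.5 to 1 it was -0.05, with 41 negative. For the 258 entries that moved by less than 0.5 the median was -0.02, with 143 negative. For the 39 that fell by 0.5 to 1 it was 0.03, with 16 negative. For the 9 that fell by more than 1 it was -0.02, with 5 negative. These medians were, in the same order and without replicate 5 of normoxic wild-type neurons, -0.10 (14 negative), 0.02 (29), 0.01 (121), 0.05 (13) and -0.03 (5). With centred libraries the median difference over the 423 entries was 0.04 instead of -0.03. Counts of signs near 0 therefore depend on the scaling, while 35 of the 35 strongest risers stayed negative.

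In the main fit, none of the 35 had an unadjusted p under 0.05 for the difference in limma. The count was 5 with voom, 5 with the replicate block and 24 with group extremes as deposited. It was 6 without replicate 5 of knockout OGD neurons, 30 without replicate 5 of normoxic wild-type neurons, and at most 2 in the rest. The 35 were chosen by their responses and moved together from library to library, with a median pairwise r of 0.85 within groups. Their shared sign is therefore not 35 separate observations. Besides miR-3535, miR-6238, miR-6240 and miR-12188-5p, they include miR-690 (a difference of -0.96, SE 0.74), miR-709 (-0.80, SE 0.73), miR-3473e (-0.79, SE 0.43), let-7f-2-3p (-0.69, SE 0.60) and miR-210-3p (-0.42, SE 0.41). In 22 of the 35 the name carries no arm, compared with 13 of the other 388 entries.

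The mean log2 level of the 35 shows where the libraries lay. It was 3.03, 3.09, 2.97, 3.23 and 5.49 in normoxic and 6.40, 6.79, 7.26, 6.64 and 7.11 in OGD wild-type libraries. In the knockout it was 3.23, 4.35, 3.004, 4.35 and 3.79 in normoxia and 6.05, 6.09, 6.32, 6.38 and 7.18 after OGD. Replicate 5 of normoxic wild-type neurons lay well above its group, and replicate 5 of knockout OGD neurons lay among the wild-type OGD libraries. The median difference between genotypes (knockout minus wild type) was 0.19 in normoxia, positive in 28 of 35 entries, and -0.44 after OGD, negative in 34 of 35. The normoxic median was 0.58, positive in 34 of 35, without replicate 5 of wild-type neurons. That value keeps replicates 2, 4 and 5 of normoxic knockout neurons (4.35, 4.35 and 3.79), which also lay above the rest of their group.

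Without replicate 5 of normoxic wild-type neurons, the median difference between responses was -1.10, 35 of 35 were negative and 30 had an unadjusted p under 0.05. The smallest adjusted p in limma was then 0.0981 (miR-7667-5p), so 0 were called. The difference for miR-690 was then -1.72 (adjusted p = 0.109) and for miR-3535 -1.12 (adjusted p = 0.272). For the others named here it was then -1.48 for miR-6238, -1.56 for miR-6240, -1.47 for miR-12188-5p, -1.48 for miR-709, -1.17 for miR-3473e, -1.15 for let-7f-2-3p and -0.31 for miR-210-3p. The range over the 35 was then -1.83 (miR-6937-5p) upward, with miR-8112 at -0.31. Leaving out any other library gave medians no further from 0 than -1.10, with at least 34 of 35 negative. The value nearest to 0 was -0.45, without replicate 2 of normoxic knockout neurons. Without replicates 1, 3, 4 and 5 of that group in turn, the median was -0.74, -0.78, -0.47 and -0.58. Over the other 12 alternatives the median ran from -0.95 to -0.45, with at least 33 of 35 negative. Replicate 5 of normoxic wild-type neurons was also the shallowest library of its group, at 2492065 reads. What the high level of these entries in it stems from was not tested.

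**Figure D5:**
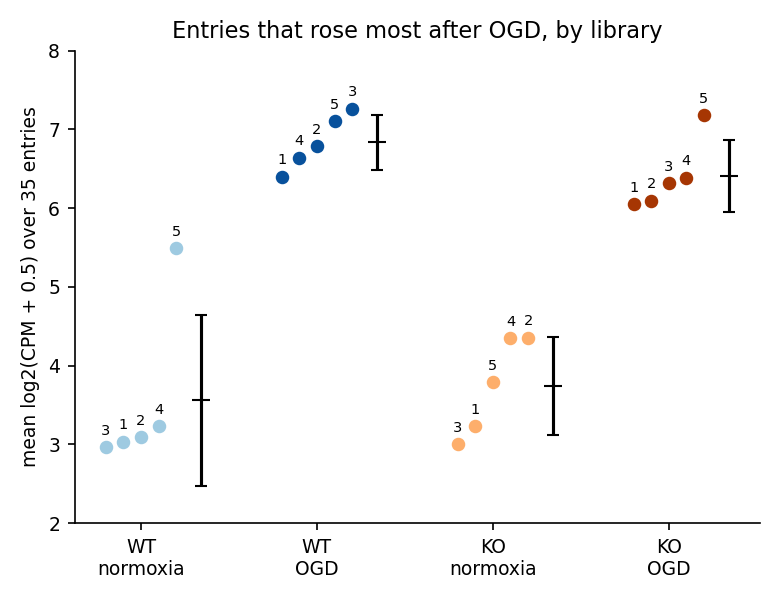
Mean log2(CPM + 0.5) of the 35 entries with a mean rise over 2, in each library, numbered by replicate, with the mean and SD of each group (n = 5). Replicate 5 of normoxic wild-type neurons (5.49) stands above the other 4 (2.97 to 3.23), and replicate 5 of knockout OGD neurons (7.18) above the other 4 (6.05 to 6.38).

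The remaining lists gave no called difference. For each, the values below are for members with a mean level of at least 3, and the median over all 423 entries was -0.03, with 171 positive and 252 negative. Centring the libraries moves every difference by the same amount. That median was then 0.04, so counts of signs near 0 depend on the scaling. Without replicate 5 of normoxic wild-type neurons, by library totals, the median was -0.00, with 206 positive and 217 negative. The Mirg cluster, imprinted miRNAs of neurons, had 43 such members with a median difference of -0.03, 31 negative and 12 positive (26 and 17 without that library), from -0.79 (miR-299a-5p) to 0.15 (miR-541-5p), with 0.29 (miR-409-5p) as the highest without it. Over its 74 members, 16 were called in both genotypes in the same direction, where 262 of all 1481 (17.7%) were, and 2 (miR-299a-5p and miR-377-5p) had an unadjusted p under 0.05 for the difference.

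Of the 15 neuron-enriched miRNAs, 6 were called in both genotypes, beside 17.7% of all entries. The differences of the 9 at that level ran from -0.24 (miR-218-5p) to 0.14 (miR-137-5p) with a median of 0.03 (0.07, and 0.20 for miR-124-5p as the highest, without that library). miR-124-3p, the main miRNA of neurons, had responses of 0.74 and 0.56 and a difference of -0.18 (SE 0.14), or -0.10 without that library. miR-9-5p, the most abundant entry, had responses of -0.02 and 0.08 and a difference of 0.10 (SE 0.12), or 0.15 without it. The 9 let-7 guides, which restrain growth, had a median of 0.02 (0.06 without that library), from -0.09 (let-7b-5p) to 0.26 (let-7j).

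The 4 forms of the activity-regulated miR-132 and miR-212 had differences from -0.31 (miR-132-5p, SE 0.22) to 0.10 (miR-212-5p, SE 0.20), with 3 of 4 called in both genotypes, beside 44.0% of the 423 entries. miR-212-5p was at 0.16 without that library. The 7 members of the Clcn5 cluster had a median of 0.04, from -0.05 (miR-362-3p) to 0.43 (miR-362-5p). Without that library the median was 0.09 and miR-362-3p was at 0.11. The 14 members of the miR-17-92 and related clusters had a median of 0.06, with 8 positive and 6 negative, from -0.16 (miR-17-3p) to 0.61 (miR-20b-5p). Without that library the median was 0.14, with 11 positive and 3 negative, and miR-17-3p was at -0.01.

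The 6 injury-linked members, among them miR-21a-5p (0.06, SE 0.15) and the p53 target miR-34a-5p (0.05, SE 0.23), had a median of 0.05, from -0.04 (miR-34b-5p) to 0.15 (miR-34c-5p). Without replicate 5 of normoxic wild-type neurons the median was 0.15, with miR-21a-5p at 0.18, miR-34a-5p at 0.13, miR-34b-5p at 0.35 and miR-34c-5p at 0.38. In that library miR-34b-5p was at 2.27 CPM against 8.88 to 10.9 CPM in the other 4, and miR-34c-5p at 32.5 CPM against 70.2 to 80.6 CPM. Of the rarer members of that list, miR-21a-3p (1.69, adjusted p = 0.577) and miR-146b-3p (-1.46, adjusted p = 0.609) had an unadjusted p under 0.05 in limma. They had at most 8 and 34 reads in a library. The 5 members of the list of strong risers that reached a mean level of 3 had a median of -0.77, from -0.93 (miR-12188-5p) to -0.39 (miR-6481), and belong to the 35 entries above. Without that library the median was -1.47, with miR-12188-5p at -1.47 and miR-6481 at -0.83.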

How the data were processed

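The authors deposited 6 tables, each holding the libraries of a pair of groups and described as log CPM. Their values exceed 19.9, the largest possible log2 CPM, so the deposited values were treated as a score. The build is mm10, per the submitters' processing notes; the aligner and read assignment are not given in the sources used here. From the values alone, each score was a whole read count times a library factor, raised to a power fixed per table, with each group's extremes drawn in at the quantiles 0.16 and 0.84. Undoing this gave whole reads for 100% of values (tolerance 0.001), with 0 differences in 59070 comparisons between tables; the recovery and the fit were first tested on simulated data.

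CPM used the library totals from the authors' factors (0.923 to 1.08 times the reads). Totals were 1160582 to 12477032 reads. A level from fewer than about 3 reads is at the floor, for counting error only. limma (3.58.1, R 4.3.3; lmFit, eBayes with trend) was fitted once to log2(CPM + 0.5) of all 20 libraries, without covariates. All p-values are two-sided and adjusted over the 1481 entries (Benjamini-Hochberg, threshold 0.05). Fold changes on this scale understate changes of rare entries. Adding 5 entries absent from 1 of the within-genotype tables relied on the other tables, where they had 0 reads.

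Named entries were those of the ciRS-7 and hypoxia lists, the 5 with the smallest p in each direction, the 4 largest shared changes in each direction, the 3 largest differences among those called in 1 genotype, and the extremes of each further list, all from a mean level of 3 on except the first 2 lists. The lists were the Mirg, Clcn5 and miR-17-92 clusters and the activity-regulated, neuron-enriched, let-7, injury and strong-riser miRNAs, with marker lists of other cell types. Other members of lists, of the miR-20b-5p seed family and of the 35 strongest risers were named after their values were seen. The comparison and lists were chosen with earlier results of these data known. Alternatives covered the pseudocount, level filter, scaling, voom, deposited extremes, thinning, a replicate block and each library left out. Same-numbered libraries were checked for shared deviations. RefSeq sequences matched 36 of 40 named entries. Between replicates the chi-square divided by its degrees of freedom was at least 8.65, so none were duplicates. In 10 sets of 22 entries, reads were the same in every library, and such entries cannot be told apart.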

Additional observations from a re-analysis of the deposited data

Results flagged for a closer look

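In 12 of 104 groups tested, a library lay far from the other 4 of its group. The nominal rate of this rule is about 1 in 20, for independent groups. These entries were picked from these data and some move together, so the count is no measure of an excess. Of the 12, 5 were replicate 5 of normoxic wild-type neurons. In that library miR-3535 was at 602 CPM (others 89.5 to 109), miR-6240 at 183 (15.3 to 22.5), miR-6238 at 86.5 (5.70 to 10.6), miR-7667-5p at 18.5 (2.50 to 5.86) and miR-12188-5p at 7.56 (0.238 to 1.11). In wild-type neurons, miR-671-5p was at 8.88 CPM in normoxic replicate 4 (others 6.25 to 6.69), miR-30b-3p at 34.2 in OGD replicate 1 (21.2 to 24.1) and miR-210-3p at 47.2 in OGD replicate 5 (111 to 128.03). In normoxic knockout replicate 3, miR-210-3p was at 47.7 CPM (others 15.9 to 24.1) and let-7c-1-3p at 93.6 (74.3 to 76.9). In knockout OGD replicate 5, let-7c-1-3p was at 8.36 CPM (others 14.2 to 16.3) and miR-7667-5p at 26.2 (19.1 to 21.0).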

How the results depend on the processing

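The count of called differences between responses was 0 under each alternative but 2. It was 38 with the group extremes left as deposited, an alternative that by its construction narrows the spread between replicates, and 1 (miR-6364, at most 3 reads) without OGD wild-type replicate 1, so 0 to 1 when a library was left out. Of the 38, 3 had a mean level of at least 3: miR-299a-5p, miR-30b-3p (0.44, adjusted p = 0.0237) and miR-3473e (-1.08, adjusted p = 0.0428). The wild-type calls (416) became 257 when only the 423 entries of at least that level were tested, 789 with voom and 635 with deposited extremes; the knockout calls (324) became 738 and 546, and the shared calls (262) 583 and 407, with the last pair of settings. Why voom gave more was not tested. With a library left out, wild-type calls were 366 to 437, knockout calls 273 to 355 and shared calls 242 to 268. Over 1278 values of the 40 named entries, 2 gained a call (miR-299a-5p and miR-30b-3p, deposited extremes), and 67 changed sign, in 12 entries, where neither value had an unadjusted p under 0.05. The sample titles attach the replicate number to the genotype and repeat it in both conditions, but no label says whether it marks a shared preparation. Not every same-numbered pair correlated over 0.1: 8 of 10 did (mean r 0.275, against -0.068 for other pairs). Of the 10, 5 correlated best with their own number, so the block was kept as an alternative. With the number as a replicate block there were 0 called differences (84 unadjusted), 479 wild-type, 370 knockout and 311 shared calls; with the block and centred libraries 0, 465, 396 and 335. Opposite calls (0) became 4 with deposited extremes (miR-146b-3p, miR-3112-3p, miR-375-3p and miR-5104b-5p), 1 with centred libraries, with or without the block (miR-6364), and 1 without OGD knockout replicate 2 (miR-146b-3p). Under a mean level of 3 the interval lay within 2-fold for 226 of 1058 entries, and the part of depth in this was not tested.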
